A study of Mus musculus with 121 samples.

Results

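The mitosis and chromosome segregation genes described here are 50 genes that work in late G2 and in mitosis. They were chosen by name, as a fixed list, and their Ensembl identifiers were matched to mouse symbols. All 50 passed the filter of at least 1 CPM (counts of a gene per 1000000 counts of the library) in at least 3 libraries, among 31053 genes in the deposited tables and 13292 that passed. They comprise 7 cyclins, CDK1 partners and mitotic entry kinases, 8 genes of the spindle checkpoint and of anaphase, 8 of the centromere and kinetochore, 4 of the chromosomal passenger complex, 10 of chromosome structure, 7 of the spindle and its motors and 6 of the central spindle and cytokinesis.

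RNA came from 1 immortalized ear fibroblast line of Per2::lucSV knock-in mice, in which luciferase is fused to the clock protein PER2, and every treatment used these cells at passage 25. Medium was exchanged in 3 cycles of 24 h, with each medium kept for 12 h. HL began a cycle with the medium rich in glucose and insulin and continued with the poor one, LH ran in the reverse order, and HH replaced rich by rich at each exchange. Cells were then left without exchanges and collected 6 times at intervals of 4 h. By the sample titles there were 21 HL, 22 LH and 19 HH libraries. The read summary of the study names 57 libraries by number, 19 for each treatment, and it places 35 libraries in another group than the titles do and leaves out 5, so that all LH libraries and all HL libraries after the first collection differ between both sources while the HH libraries do not. The main results are therefore given by titles and by library numbers. Collection times follow the order of the collections, because the clock hours in the labels do not advance in even steps of 4 h in any treatment, and those of LH run in another order than those of HL and HH.

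Library totals were 3391603 to 9785826 counts in HL, 104912 to 8154566 in LH and 3687321 to 11619095 in HH. The library of 104912 counts belonged by titles to the second LH collection, where 1 count equals 9.53 CPM, and it is not listed by number. The methods of the study describe its replicates as independent biological experiments. The labels do not tie single libraries to cultures, so p-values measure the spread between libraries. All 14 fibroblast markers reached a mean of 1 CPM and summed to 19382 to 45111 CPM over the other 61 libraries. The keratinocyte markers summed to 0.721 to 7.96 CPM, and Krt1 and Krt5 had no count. The blood cell markers summed to 4.96 to 28.6 CPM over those 61, while in the library of 104912 counts Csf1r alone had 172 CPM, Ptprc 76.3 CPM and Cd68 47.7 CPM, few counts at that depth. The muscle and fat markers summed over the 61 to 0 to 11.7 CPM without a count for Myod1, the endothelial markers to 22.8 to 270 CPM, mainly Kdr, and the cartilage markers to 294 to 1130 CPM, mainly Sox9.

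A dividing cell condenses its replicated chromosomes, captures each sister pair by microtubules at the kinetochores, waits at the spindle checkpoint until all pairs are attached, and then cuts cohesin so that sisters part and the cell body divides. Cyclin B with CDK1 starts this program, and the ubiquitin ligase APC/C with CDC20 ends it by destroying cyclin B and securin. Most of its genes are transcribed in G2 from promoters that carry a cell cycle homology region (CHR), bound by the DREAM and MuvB complexes, and CCAAT boxes, bound by NF-Y. In a culture, the RNA of these genes follows the share of cells in G2 and mitosis as well as the output of each cell, and in these bulk libraries fewer dividing cells and less RNA per cell cannot be told apart.

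Promoters are shown for Top2a, Ncapd2, Smc2 and Cdk1, which were among the higher expressed members and stand below for chromosome structure and mitotic entry. Sequences are from RefSeq on GRCm38.p6, from 250 bases before to 30 bases after the annotated start, read 5′ to 3′ along the strand of the gene. Capitals mark TTTGAA or TTTAAA, the letters of the CHR, and CCAAT, on either strand (TTCAAA and ATTGG on the other; TTTAAA reads alike on both). The windows are chr11:99024160-99024439 (minus strand) for Top2a, chr6:125191557-125191836 (minus) for Ncapd2, chr4:52438971-52439250 (plus) for Smc2 and chr10:69352883-69353162 (minus) for Cdk1.
Top2a: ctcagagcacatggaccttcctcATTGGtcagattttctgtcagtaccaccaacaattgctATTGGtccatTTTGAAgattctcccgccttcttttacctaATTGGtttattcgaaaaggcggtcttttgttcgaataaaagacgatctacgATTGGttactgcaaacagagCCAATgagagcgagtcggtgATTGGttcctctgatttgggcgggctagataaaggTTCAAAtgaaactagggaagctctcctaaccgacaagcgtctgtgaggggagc
Ncapd2: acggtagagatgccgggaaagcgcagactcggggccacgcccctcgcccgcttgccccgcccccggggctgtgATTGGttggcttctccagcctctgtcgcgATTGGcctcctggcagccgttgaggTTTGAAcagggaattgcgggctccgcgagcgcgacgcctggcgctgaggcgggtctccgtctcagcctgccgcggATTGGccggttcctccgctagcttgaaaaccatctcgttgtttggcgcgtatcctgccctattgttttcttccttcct
Smc2: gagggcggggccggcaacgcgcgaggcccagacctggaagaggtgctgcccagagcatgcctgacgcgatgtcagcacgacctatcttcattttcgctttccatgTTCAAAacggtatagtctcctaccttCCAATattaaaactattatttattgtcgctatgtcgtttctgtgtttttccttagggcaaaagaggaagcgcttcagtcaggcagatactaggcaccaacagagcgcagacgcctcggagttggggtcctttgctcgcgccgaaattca
Cdk1: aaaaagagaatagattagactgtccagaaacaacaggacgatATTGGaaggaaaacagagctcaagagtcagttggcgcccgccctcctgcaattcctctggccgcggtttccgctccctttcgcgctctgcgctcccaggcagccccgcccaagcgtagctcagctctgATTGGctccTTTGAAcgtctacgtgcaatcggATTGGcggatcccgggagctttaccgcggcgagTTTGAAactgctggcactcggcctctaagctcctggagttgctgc

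The Top2a window held 6 CCAAT boxes and 2 CHR matches, the nearer beginning 23 bases before the start. Cdk1 had CHR matches beginning 71 and 15 bases before the start, the first of which lies 9 bases downstream of the beginning of a CCAAT box. Ncapd2 had 3 CCAAT boxes and 1 CHR match, and Smc2 had 1 of each. Of the 50 genes, 42 had an entry in the promoter table, with 44 promoters. In windows of 250 bases before to 50 after the start, TTTGAA or TTTAAA occurred in 37 of the 44 (84.1%), against 27.6% of all 32851 promoters and 19.7% of the 13021 promoters of genes that passed the filter. CCAAT occurred in 33 (75%), against 37.4% of all promoters. Both occurred in 31 (70.5%), against 10.7% of all and 7.66% of those of genes that passed the filter. Matches of both motifs can share a base. These are matches of letters and not measured binding. No entry was matched for Incenp, Smc4, Cdca2, Tpx2, Kif20a, Aurkb, Spc24 and Ccna2.

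Reads of 3′DGE come from the 3′ end of a transcript, so levels of genes can be set side by side without a length correction. Over the 61 deeper libraries, mean levels ran from 0.808 CPM for Aurkb to 124 CPM for Smc4. Chromosome structure held the highest members. Smc4, a core subunit of condensin, had 124 ± 33.4 CPM (SD, n = 61), and Top2a, the topoisomerase that untangles sister DNA, had 103 ± 46.8 CPM. Pttg1, securin, which holds separase inactive until anaphase, had 79.1 ± 12.9 CPM. Across 62 libraries, Ncapd2 had a mean of 43.4 CPM, Smc2 42.5 CPM, Cdk1 29.6 CPM and Incenp, the scaffold of the passenger complex, 26.5 CPM. Ncapd2 and Smc2 are further condensin subunits. The other members of that role reached down to Ncaph, with 1.46 CPM, and Cdca5 (sororin, which protects cohesion), with 1.98 CPM. Within complexes levels were uneven. The kinetochore subunits Spc25 (18.99 CPM) and Spc24 (4.34 CPM) form a dimer and had unequal means, and in the passenger complex the kinase Aurkb had 0.795 CPM while Birc5 had 10.7 CPM and Cdca8 11.2 CPM. Pttg1 spread least relative to its mean, with a coefficient of variation of 16.3% over the 61 libraries.

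**Figure D1:**
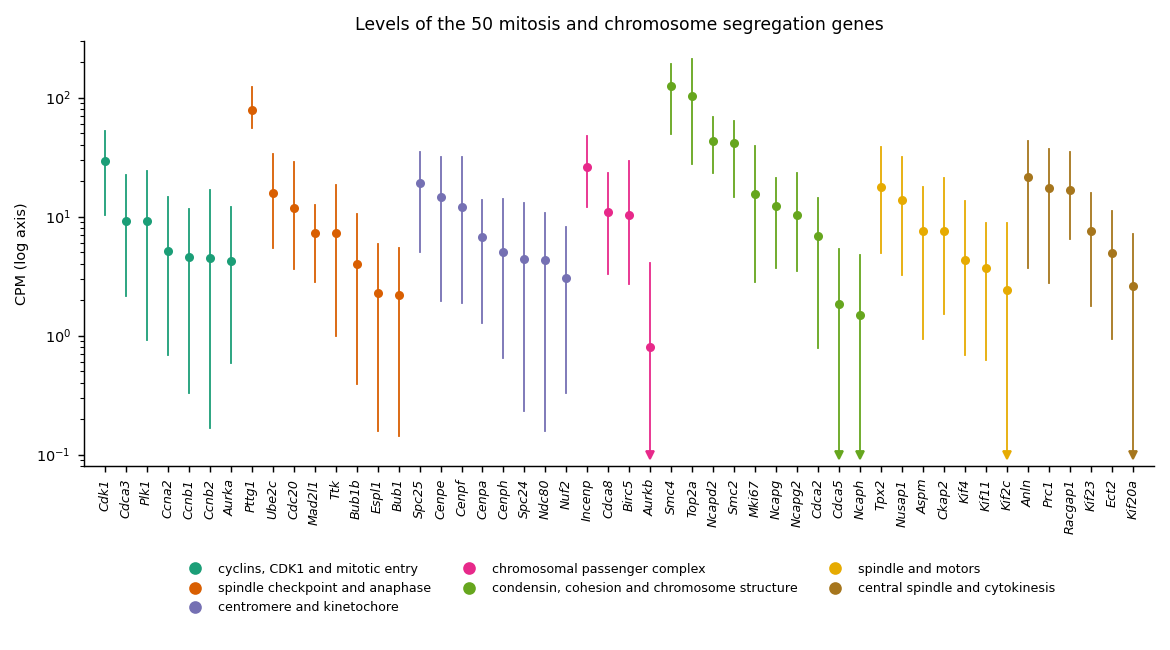
Level of each of the 50 genes in CPM (log axis), grouped by role; dots are means over the 61 libraries with at least 1000000 counts, bars run from the lowest to the highest library, and triangles mark a lowest value below the axis. Smc4 (124 CPM) and Top2a (103 CPM) are the highest and Aurkb (0.808 CPM) the lowest.

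For 9 of the genes another annotated gene overlaps on the opposite strand, and for 6 it covers the 3′ end where 3′DGE reads fall: Ccna2 (with Exosc9), Cdc20 (Elovl1), Ube2c (Tnnc2), Ncapg (Lcorl), Kif20a (Cdc23) and Prc1 (Rccd1). The use of strand in counting is not given in the sources used here. The partner exceeded the member in mean level for Ccna2 (6.63 against 33.4 CPM for Exosc9), Cdc20 (12.0 against 62.0 for Elovl1), Ncapg (12.2 against 32.4 for Lcorl) and Kif20a (2.56 against 16.1 for Cdc23), so values of these 4 are uncertain.

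The levels under HL, LH and HH were compared with edgeR's quasi-likelihood test, all collections together with collection as a term, first at the thresholds of the study without adjustment over genes (p under 0.01 over the 3 treatments and under 0.05 for the pair). The 3 pairs share their libraries. By titles, 1 of 50 members was called for LH against HL (1.16% of all genes tested), none for HH against HL (1.2%) and 1 for LH against HH (0.91%). The called gene was Ttk in both, the kinase that starts the spindle checkpoint. Ttk had 8.38 ± 4.45 CPM (SD, n = 21) in HL, 5.99 ± 3.66 CPM (n = 22) in LH and 8.22 ± 4.45 CPM (n = 19) in HH. Its log2 fold change of LH against HL was -0.59 (SE 0.19) with an edgeR p of 0.00287, which gave a Benjamini-Hochberg adjusted p of 0.540. By library numbers that value for Ttk was 0.27 (SE 0.20; adjusted p 0.773), and no member was called in any pair (1.34%, 0.568% and 1.63% of all genes). After adjustment no member was called in either assignment (by library numbers 0.0152%, 0.00758% and 0.0227% of all genes, by titles none). At an unadjusted p under 0.05, by titles, 7 members differed for LH against HL (5.69% of all genes), none for HH against HL (7.42%) and 11 for LH against HH (5.23%). The library numbers gave none (7.63%), none (3.62%) and 6 (10.2%) at that threshold. The median log2 fold change of the 50 for LH against HL was -0.26 by titles and -0.05 by number. The Ttk call was lost by titles without HL replicate 1 or 2, LH replicate 2, 3 or 4 or HH replicate 3, while in each pair 6 members were called without LH replicate 1 (1.64% of all genes for LH against HL, 0.924% for LH against HH) and 2 without HH replicate 4 (1.3% and 2.06%). By library numbers 1 member was called for LH against HH without HH replicate 1 (1.17%) and 2 without HH replicate 4 (3.42%).

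The summed level of the 50 genes averaged 808 CPM under HL, 796 under LH and 856 under HH when grouped by titles, and 827, 785 and 856 CPM when grouped by library numbers. The LH mean by titles was 749 CPM without the library of 104912 counts, in which the 50 genes had 187 counts together. In HH the means of the 6 collections were 997, 927, 1145, 762, 687 and 617 CPM. By library numbers HL had 994, 1005, 910, 871, 604 and 560 CPM, and LH had 942, 992, 867, 707, 494 and 581 CPM, the fifth from 1 library. By titles HL had 994, 571, 992, 915, 817 and 655 CPM and LH 632, 965, 1031, 782, 788 and 579 CPM. The second LH collection by titles consisted of 3 libraries with 430, 682 and 1782 CPM, the last being the library of 104912 counts, so its mean rests on that library. The lowest HL means by titles were those of the second and the sixth collection. In the second, the libraries of 483, 471 and 442 CPM are not listed by number. Its library of 887 CPM is in the first LH collection by number.

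**Figure D2:**
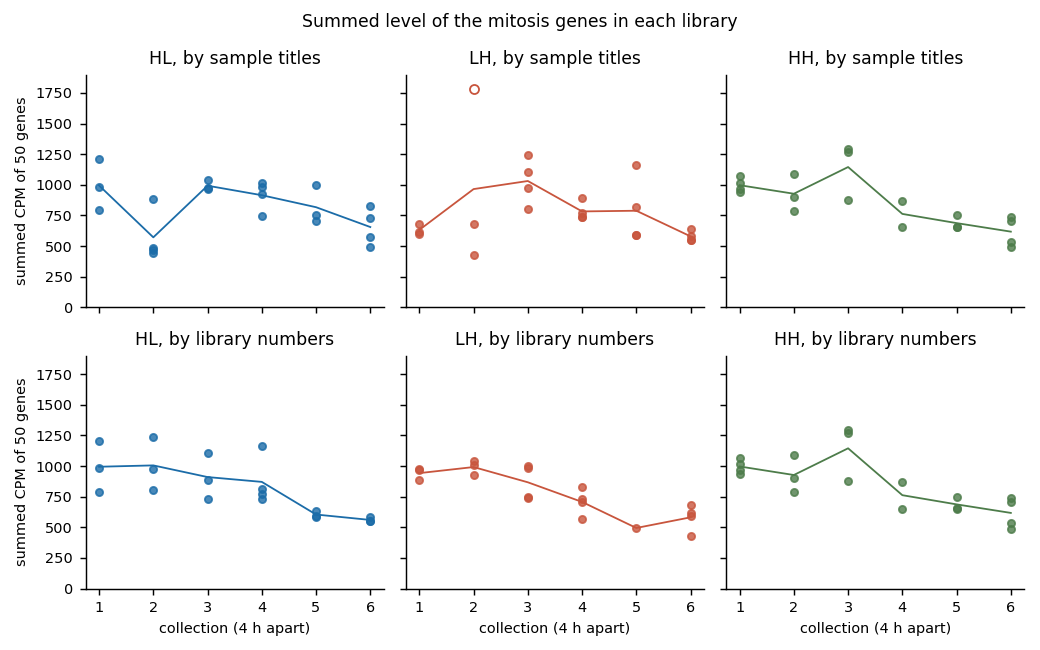
Summed CPM of the 50 genes in each library against the number of the collection (4 h apart), for HL, LH and HH, by titles and by library numbers. Points are libraries, the line joins collection means and the open circle is the library of 104912 counts. In HH the means fall from 1145 CPM in the third to 617 CPM in the sixth collection.

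A test of any difference between the 6 collections of a treatment, again with edgeR and Benjamini-Hochberg adjustment over all genes, called by titles no member under HL (0.301% of all genes), 9 under LH (2.93%) and 6 under HH (0.293%). The LH members were Cdc20, Cdca3, Cdca8, Cenpf, Kif2c, Ncapd2, Nusap1, Plk1 and Spc24. Of 3 blood cell markers tested, Csf1r and Ptprc were also called under LH by titles and none was by library numbers, and their part in the LH result was not tested. Without the library of 104912 counts 12 members were called under LH by titles (3.87% of all genes). Those of HH were Bub1b, Cdca3, Cdca8, Ncapd2, Ncapg2 and Nusap1. By library numbers 7 were called for HL (0.394%), 5 for LH (1.05%) and 8 for HH (0.803%), of which Cdca3, Nusap1 and Top2a were called in all 3 treatments. The share of all genes called in all 3 treatments is not given here. Cdca3 serves the destruction of the mitosis inhibitor WEE1, and Nusap1 bundles spindle microtubules. Single replicates moved these counts. Where no share of all genes stands beside a count, a move of the members cannot be told from one of the whole fit. By library numbers the fifth LH collection is 1 library, of replicate 1, so leaving out LH replicate 1 removes that collection. By titles the LH count was 5 without LH replicate 1 (0.349% of all genes) and 3 without LH replicate 4 (5.35%), and the HL count was 3 without HL replicate 4. The HH count by titles became 1, 0, 0 and 2 on leaving out HH replicates 1, 2, 3 and 4 in turn, and 1 on leaving out the second replicate of HL. By library numbers the LH count was 1 without LH replicate 1 or 3 and 2 without LH replicate 2 or 4. The HL count by numbers was 0 without HL replicate 1, 2 without HL replicate 2 or 3 and 13 without LH replicate 4, and the HH count was 0 without HH replicate 3 and 4 without HH replicate 1 or 2.

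**Figure D3:**
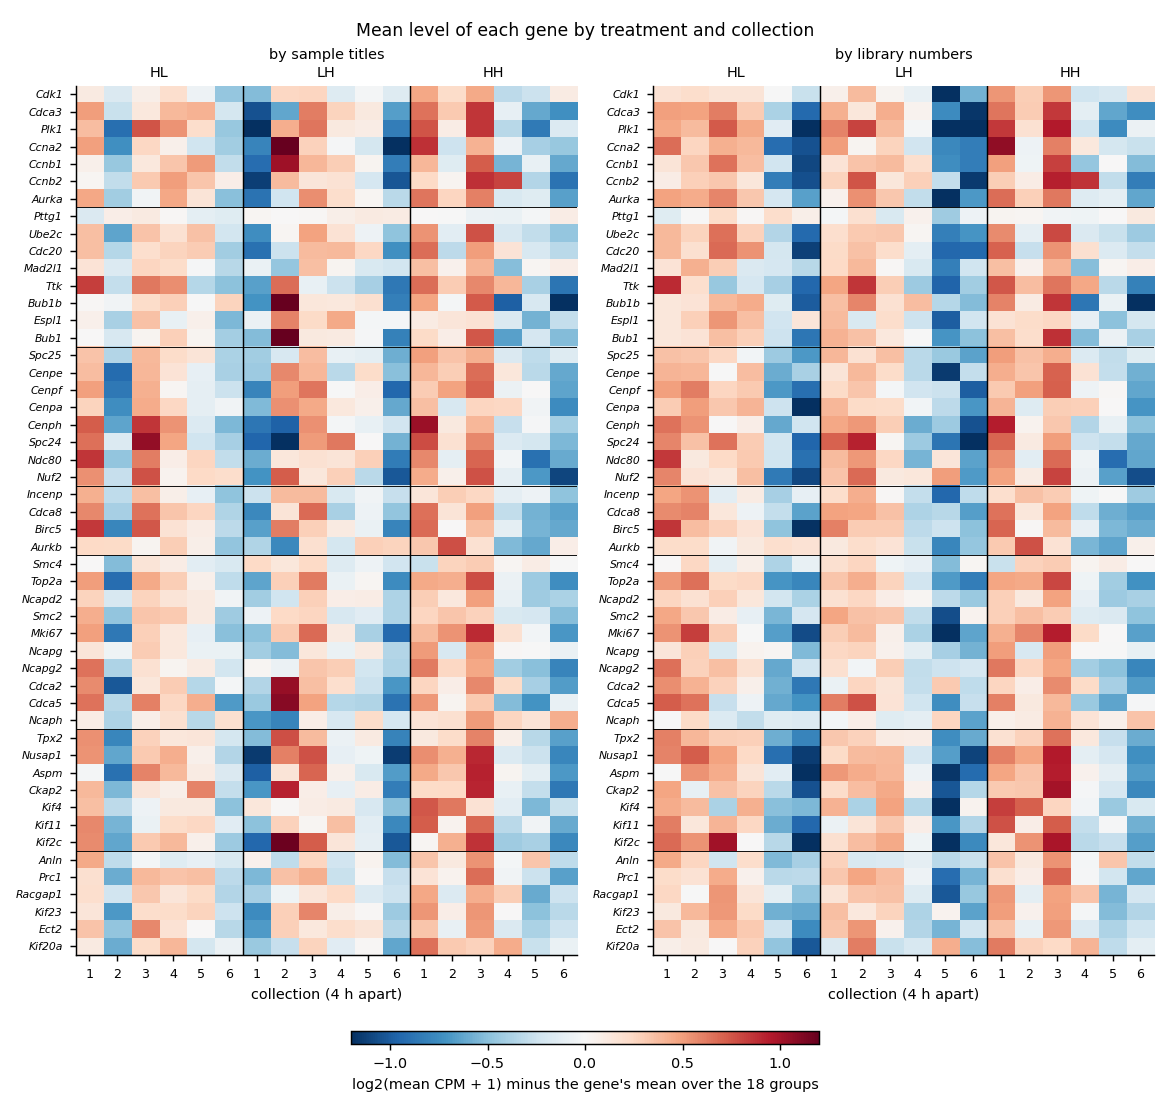
Level of the 50 genes (rows, by role) in the 6 collections of HL, LH and HH (columns), by titles and by library numbers, as log2(mean CPM + 1) minus the mean of that gene over its 18 groups; red is above and blue below that mean. In HH, and by library numbers in HL and LH, the later columns are bluer for most rows, and the rows of Pttg1 and Smc4 stay pale.

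The last 3 collections were then compared with the first 3 within each treatment, a contrast added after the values were seen. In HH the summed level ran from 789 to 1292 CPM (median 990, n = 10) in the first 3 and from 490 to 871 CPM (median 657, n = 9) in the last 3, and 8 of the 9 later libraries lay below every earlier one. By titles 8 members fell in HH (0.158% of all genes): Bub1b, Cdca3, Cdca8, Ncapd2, Ncapg2, Nuf2, Nusap1 and Top2a. None was called in HL (0.0376%) or LH (0.00752%). At an unadjusted p under 0.05 the edgeR test called 3 members lower in HL (3.09%), 1 in LH (3.91%) and 36 in HH (3.66%). The median log2 difference of the 50 was -0.06 for HL, -0.07 for LH and -0.74 for HH, beside medians of all genes of -0.001, 0.01 and 0.01. By titles the summed levels of the earlier and later libraries overlapped in HL, 442 to 1209 against 494 to 1012 CPM, and in LH, 430 to 1782 against 548 to 1160 CPM.

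By library numbers members fell in all 3 treatments, with 13 for HL (0.28% of all genes), 11 for LH (0.705%) and 11 for HH (0.295%). At an unadjusted p under 0.05 the edgeR test called 40 members lower in HL (4.07%), 34 in LH (9.18%) and 39 in HH (4.11%). The HH libraries are the same in both assignments, but the fit by numbers held 57 libraries and 13198 genes rather than 62 and 13292, and the cause of the move in the HH count was not tested. The summed level in HL ran from 734 to 1240 CPM (median 972, n = 9) in the first 3 and from 548 to 1160 CPM (median 613, n = 10) in the last 3, with 6 of 10 later libraries below every earlier one. In LH it ran from 741 to 1038 CPM (median 970, n = 10) and from 430 to 827 CPM (median 616, n = 9), with 8 of 9 below. The median log2 differences of the 50 were -0.79, -0.77 and -0.74 (HL, LH, HH), against 0.01, -0.04 and 0.01 for all genes. 47 of the 50 were below 0 in all 3 treatments, the exceptions being Aurkb, Ncaph and Pttg1, while by titles 15 were. Of all genes, 18.6% were below 0 in all 3 by library numbers and 11.7% by titles. Within single treatments, 48.6%, 54.8% and 48.2% of all genes (HL, LH, HH) were below 0 by library numbers and 50.3%, 48.3% and 48.1% by titles. No member was called higher in the last 3 collections after adjustment, in any treatment by either assignment. Of all genes 0.205%, 0.303% and 0.273% were called higher by library numbers, and 0.0527%, 0.015% and 0.135% by titles. The fibroblast markers, as a list, had called genes in this contrast by library numbers as well: Col3a1 fell in LH (1 of 14; none in HL or HH), and at an unadjusted edgeR p under 0.05 5 of 14 were lower in HL, 7 in LH and 3 in HH, with list medians of -0.09, -0.23 and -0.15. By titles none of the 14 was called after adjustment, and 0, 1 and 3 were lower at the unadjusted threshold. Their part in the result of the members was not tested. For the leave-out counts that follow, shares of all genes are not given, so a move of the members cannot be told from one of the whole fit. By library numbers, leaving out LH replicate 1 removes the fifth LH collection. By library numbers, leaving out HL replicate 1, 2 or 3 or LH replicate 2 left 1, 3, 7 or 8 calls for HL, leaving out LH replicate 1, 2, 3 or 4 or HL replicate 2 left 5, 3, 2, 4 or 7 for LH, and leaving out HH replicate 1, 2, 3 or 4 left 6, 7, 3 or 4 for HH. The 8 calls of HH by titles went to 0 without HH replicate 3 or 4 and to 1 without HH replicate 1.

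In chromosome structure, Top2a fell under HH in both assignments. Its level in HH was 139.6, 147.0, 116.0 and 157.1 CPM in the first collection, 151.2, 162.6 and 100.7 CPM in the second and 205.9, 209.4 and 112.1 CPM in the third. In the fourth it was 116.0 and 78.4 CPM, in the fifth 70.8, 66.2 and 88.4 CPM and in the sixth 84.6, 70.1, 34.8 and 51.9 CPM. A single later library, the 116.0 CPM of the fourth collection, reached into the earlier range. The log2 difference was -0.95 (SE 0.22; adjusted p 0.0385 by titles), a fold of 0.518. By library numbers Top2a ran from 86.7 to 203.6 CPM (median 145) in the first 3 and from 48.4 to 163.8 CPM (median 66.4) in the last 3 collections of HL, a log2 difference of -0.87 (SE 0.16; adjusted p 0.00131). In LH by numbers it ran from 89.8 to 152.8 CPM (median 131) and from 27.7 to 107.6 CPM (median 71.4), -0.82 (SE 0.19; adjusted p 0.0195). By titles the Top2a difference was 0.04 in HL and -0.05 in LH, with adjusted p of 1 and 0.996.

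Smc2 fell in all 3 treatments by library numbers, with log2 differences of -0.56 for HL, -0.72 for LH and -0.56 for HH, and by titles its HH value was not called (-0.56, SE 0.20, adjusted p 0.344). In HH, Smc2 ran from 39.1 to 62.0 CPM (median 51.6) in the first 3 and from 16.0 to 43.0 CPM (median 35.8) in the last 3 collections. Ncapd2 fell in HH in either assignment (log2 difference -0.58, SE 0.11), and so did Ncapg2 (-1.07, SE 0.21). Mki67 (Ki-67, a coat of mitotic chromosomes) and Cdca2 (which brings a phosphatase to chromatin at mitotic exit) fell in HL by library numbers, to 0.434 and 0.501 of their earlier level. Smc4, the partner of Smc2 in condensin, had log2 differences by numbers of -0.15, -0.22 and -0.02 (HL, LH, HH) and was not called.

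Among spindle genes, Nusap1 fell in HH in both assignments and in all 3 treatments by library numbers. In HH it had 12.8 to 31.9 CPM (median 18.7) in the first 3 and 5.98 to 13.7 CPM (median 9.88) in the last 3 collections, and 8 of the 9 later libraries lay below every earlier one (log2 difference -1.07, SE 0.22, adjusted p 0.0115 by titles). By library numbers the Nusap1 difference was -1.28 in HL and -0.96 in LH. Kif2c, a kinesin that shortens microtubules at kinetochores, had the largest called difference by library numbers, -1.95 (SE 0.33) in HL, a fold of 0.260. In HL by numbers Kif2c ran from 2.25 to 7.90 CPM (median 4.39) and later from 0.182 to 3.88 CPM (median 1.45), and 9 of 10 later libraries were below every earlier one. Its differences in LH and HH by numbers were -1.74 (SE 0.46) and -1.37 (SE 0.32), and by titles the Kif2c value in HH was not called (adjusted p 0.191). Tpx2, which activates Aurora A on the spindle, fell in HL by library numbers (-0.82, SE 0.20), and Aspm, a spindle pole protein, in LH (-1.26, SE 0.31).

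Among mitotic entry genes, Cdca3 fell in HH by titles (log2 difference -1.18, SE 0.24, adjusted p 0.0116), and the library numbers gave -0.96 under HL, -0.98 under LH and -1.19 under HH, all called. Plk1, a kinase active from entry to exit, fell by library numbers in LH (log2 difference -1.91, SE 0.36) and HH (-1.09, SE 0.26). In LH by numbers, Plk1 ran from 4.99 to 19.5 CPM (median 14.3, n = 10) in the first 3 and from 0.923 to 10.997 CPM (median 4.56, n = 9) in the last 3 collections, and the groups overlapped. Aurka (Aurora A, a centrosome kinase) fell in LH by library numbers to 0.335 of its earlier level, and Ccna2 (cyclin A2) fell in HL. Cdk1 itself was not called, with log2 differences by numbers of -0.20, -0.74 and -0.49 in HL, LH and HH and adjusted p of 0.899, 0.0637 and 0.311.

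In the checkpoint, Bub1b (BubR1, which holds CDC20 inactive) fell in HH in both assignments (log2 difference -1.65), while its differences in HL and LH by numbers were -0.63 and -0.56 and were not called. By library numbers Ttk fell in LH (-1.21, SE 0.32, adjusted p 0.0490), as did Cdc20, and Ube2c, a ubiquitin enzyme of the APC/C, fell in HL (-0.82). Pttg1 had values of 0.10, -0.02 and 0.06 by library numbers, in the order HL, LH, HH, with SE of 0.09, 0.11 and 0.10. At the kinetochore, Nuf2 fell in HH (-1.45, SE 0.34 by titles), and by library numbers Cenpf in HL and Spc24 in LH. In the passenger complex, Cdca8 (borealin) fell in HH (-0.99) and, by numbers, in HL (-0.82), where Birc5 (survivin) fell as well (-1.11). No gene of the central spindle and cytokinesis role was called in any treatment: Prc1, which crosslinks the midzone, had differences by numbers of -0.48, -0.83 and -0.59, and Anln (anillin) had -0.38, -0.11 and -0.30 in HL, LH and HH. Whether the change over collections differed between treatments or between roles was not tested.

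**Figure D4:**
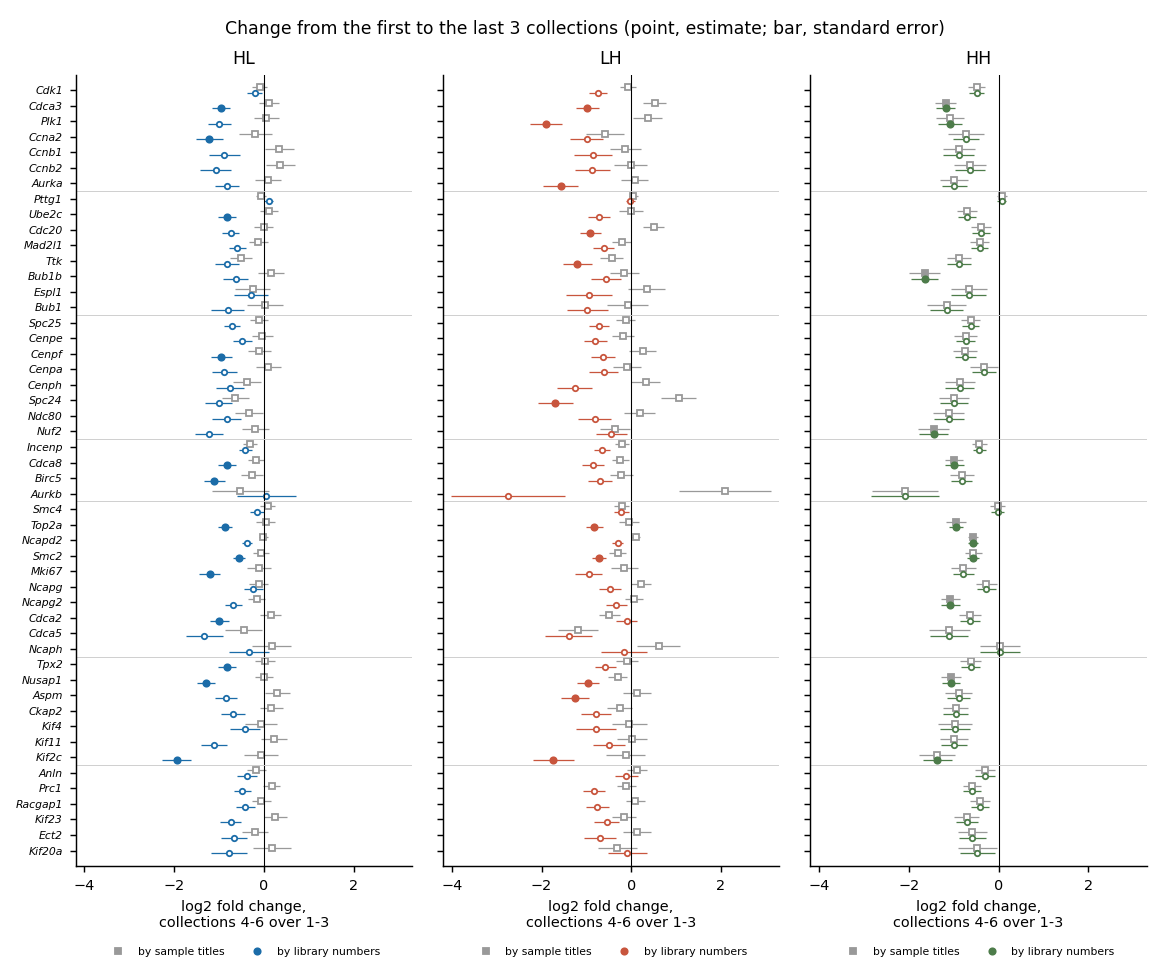
Log2 difference of the last 3 minus the first 3 collections for each of the 50 genes under HL, LH and HH; grey squares are by titles, circles by library numbers, bars are 1 SE and filled symbols have an adjusted p under 0.05. In HH both series lie mostly left of 0 (medians -0.74), and in HL and LH only the circles do (medians -0.79 and -0.77).

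A 24 h rhythm was sought in each treatment with JTK_CYCLE at an exact P under 0.01 without adjustment over genes. By titles no member passed under HL (0.466% of all genes), 4 passed under LH (0.933%) and 10 under HH (1.22%). Those of LH were Cdca2 (exact JTK P 0.000822, peak at 8 h after the first collection), Cdca3, Cdca5 and Nusap1. Those of HH were Ccnb2, Cdca3, Cenpe, Cenpf, Ckap2, Kif2c, Nuf2, Nusap1, Smc2 and Top2a, all with peaks at 6 to 8 h. Kif2c had the smallest P in HH (exact JTK P 0.00154) and Top2a had an exact JTK P of 0.00301. By library numbers 9 passed for HL (1.03%), 17 for LH (1.31%) and 10 for HH (1.23%), with peaks at 4 to 8 h, 2 to 6 h and 6 to 8 h. Kif2c and Smc2 passed in all 3, for which the share of all genes is not given here. At an exact JTK P under 0.05 the counts by titles were 0 for HL (2.68%), 19 for LH (3.83%) and 21 for HH (4.71%), and by library numbers 18 (4.3%), 26 (4.47%) and 21 (4.74%). The smallest values in LH by numbers were those of Aurka and Ttk (exact JTK P 0.00039 each, peak at 4 h). After Benjamini-Hochberg adjustment no JTK call of a member remained in any treatment. The 6 collections cover 1 day, so a rhythm cannot be told apart from a fall over the day. For the HH leave-out counts that follow, shares of all genes are not given, so a move of the members cannot be told from one of the whole fit. By library numbers, leaving out LH replicate 1 removes the fifth LH collection. Leaving out 1 replicate set the HH count at 0 (HH replicate 3), 1 (HH replicate 1 or 2) or 11 (HH replicate 4), and by titles the LH count at 8, 0, 0 and 1 for replicates 1 to 4 left out in turn (0.811%, 0.553%, 0.582% and 0.734% of all genes). By library numbers the same step gave 0, 1, 8 and 1 for HL (0.593%, 0.374%, 0.662% and 1.12%) and 2, 8, 8 and 10 for LH (0.359%, 0.381%, 0.639% and 1.32%).

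A cosine fitted to every member, called or not, peaked at a median of 5.0 h in HH, with 47 of the 50 peaks between 0 and 8 h. By library numbers the medians were 5.7 h in HL (47 of 50 between 0 and 8 h) and 5.0 h in LH (all 50). By titles they were 12.6 h in HL and 9.9 h in LH, where 9 and 7 of the 50 fell in that span. The rhythms of treatment pairs, which share libraries, were compared in 1 edgeR model with a cosine and sine per treatment. No member differed after Benjamini-Hochberg adjustment in any pair by either assignment (0.0677%, 0.015% and 0.0527% of all genes by titles for HL and LH, HL and HH, and LH and HH, and 0.00758%, 0% and 0% by library numbers). At an unadjusted p under 0.05 the counts by titles were 10 (7.21%), 19 (9.91%) and 19 (9.61%), and by library numbers they were 0 (3.01%), 0 (5.48%) and 0 (6.87%). After adjustment DESeq2 called 1 member in LH and HH by titles (0.0392% of the genes it tested).

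Levels of most members varied together across libraries. For each gene, log2(CPM + 1) was correlated with the mean of the other members over the 61 deeper libraries. The median Pearson r of the 50 was 0.724, and 46 were above 0.5, against a median of 0.121 and 3.41% above 0.5 among 13242 other genes. Top2a had the highest r (0.933) and Pttg1 the lowest (-0.118). These libraries share collections and sequencing depth, and the mean of the members had an r of 0.227 with log2 library total. After the mean of each group was taken out, the median r was 0.547 by titles (34 above 0.5) and 0.480 by library numbers (21 above 0.5; 57 libraries), against medians of 0.10 and 0.08 and shares above 0.5 of 0.8% and 1.02% among the other genes. These are descriptions without a test.

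**Figure D5:**
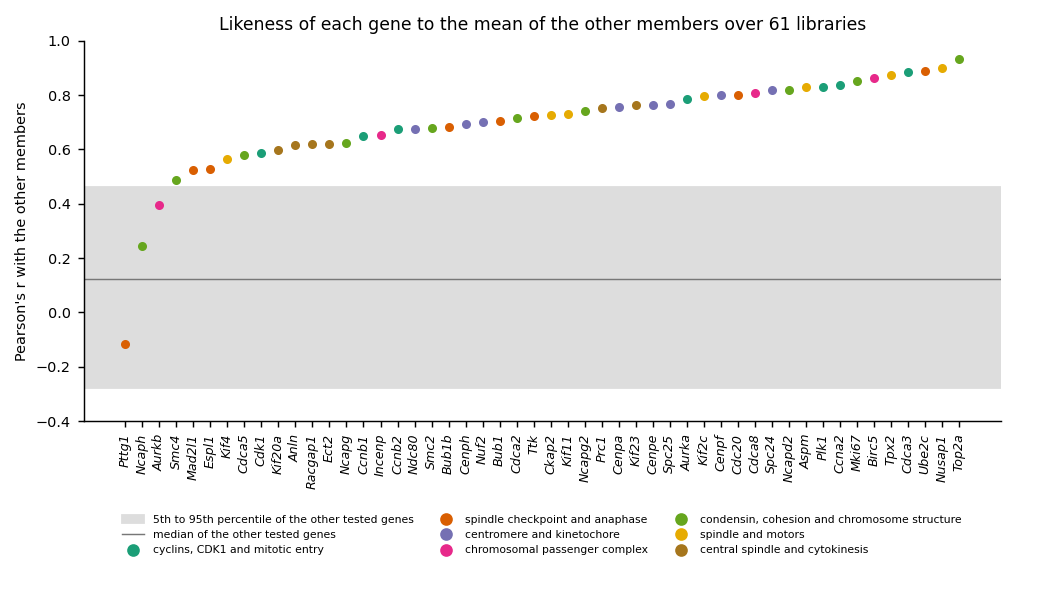
Pearson r of each of the 50 genes with the mean log2(CPM + 1) of the other members over 61 libraries; the shaded band is the 5th to 95th percentile of the 13242 other genes (-0.277 to 0.463). Points run from -0.118 (Pttg1) to 0.933 (Top2a), and most lie above the band.

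Among non-members with a mean of at least 10 CPM, the genes most like the members were Pclaf (r = 0.887), a partner of PCNA in DNA replication, Lox (0.837), an enzyme that crosslinks collagen, Diaph3 (0.792), Rrm1 (0.782), a subunit of ribonucleotide reductase, and Lig1 (0.774), the DNA ligase of replication. The lowest were the clock repressor Cry1 (-0.679) and the interferon-responsive genes Ifit3 (-0.674), Ifi211 (-0.661), Phf11d (-0.646) and Stat2 (-0.646). Pclaf fell late by library numbers under HL (-1.64), LH (-1.30) and HH (-1.10). Lox fell late by library numbers in each treatment, and by titles under HH (-0.51). Cry1 rose in HH in both assignments, by a log2 difference of 1.14 (adjusted p 0.0247 by titles).

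Further genes of the cell cycle were taken from listed sets. Of 97 other mitosis genes 95 were tested, and by titles 3 fell late in HH (3.16%, against 0.158% of all genes; Cenpm, Cit and Foxm1, the last a transcription factor of G2 genes) and none in HL or LH. By library numbers 8 fell under HL (8.42%, against 0.28% of all genes), 1 under LH (1.05%, against 0.705%) and 5 under HH (5.26%, against 0.295%). The LH share was close to that of all genes. By library numbers Wee1, the kinase that restrains CDK1, was called higher in each treatment, the only one of the 95 (1.05%, against 0.205%, 0.303% and 0.273%), whereas by titles none of the 95 was called higher in any treatment, HH included. Their median log2 differences by numbers were -0.38, -0.34 and -0.28 in HL, LH and HH. Of 50 S phase genes, 2 fell in HH by titles (4%; Lig1 and Rrm1), and by numbers 3 fell under HL (6%; Lig1, Mcm7 and Tk1), none under LH and 4 under HH (8%; Lig1, Mcm5, Mcm7 and Rrm1), beside the same shares of all genes and with medians of -0.39, -0.38 and -0.52. Of 24 cell cycle brakes and G1 genes 23 were tested and none was called late in any treatment by either assignment. Their medians by numbers were 0.004, -0.14 and -0.06.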

How the data were processed

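Cells of HL, LH and HH were profiled by 3′DGE. The authors deposited raw counts per gene for 121 sequencing sets of 62 libraries, without normalization. The submitters' processing notes name bcl2fastq, STAR 2.6.0a, HTSeq 0.9.1 and build mm10, without roles. How strand was used, and which annotation release, is not given in the sources used here. Lines naming no gene were left out (18.4% to 29.1% of uniquely aligned reads of a run fell on no feature). The 2 runs of 59 libraries were summed, and 3 libraries had 1 run. Of 31053 identifiers 30934 matched GENCODE M21 (GRCm38). Totals per library were 104912 to 11619095 counts. The limit of the study (2500 genes above 5 cpm) removed no run. No column of another series was present.

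Tests covered genes reaching 1 cpm in 3 or more libraries (13292 by titles, 13198 by library numbers). The counts were fitted with edgeR 4.0.16 in R 4.3.3 (TMM, quasi-likelihood test, all treatments in 1 model), with Benjamini-Hochberg adjustment over all genes tested. Levels used the thresholds of the study (0.01 over treatments, 0.05 for a pair) with collection as a term. A fit with 1 mean per treatment and collection gave the tests over collections and of the last 3 against the first 3. JTK_CYCLE was rewritten in Python 3.11.15 with the exact null over the 6 collections (24 h period, phases in steps of 2 h, exact P under 0.01). Means ± SD of CPM use library totals. DESeq2 1.42.0, library totals, other filters, each run alone, a replicate block and leaving out each replicate were alternatives, and the contrast of the last 3 collections was added after the values were seen.

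The members, the lists and the rule for named genes were chosen with earlier results of these data known. Named are the members the study names, the 2 highest of each role, members called in a comparison where at most 8 were called and otherwise the 4 of smallest P, and any other member. Non-members named are the 10 most and 5 least like the members, not all of which have values printed, and the called genes of a list where at most 5 were called. Promoters are those of the 4 highest members holding both motifs. On simulated data for LH against HL edgeR found 200 of 200 2-fold changes past both thresholds, with 74 false calls among 12692 unchanged genes, and 163 of 200 2-fold changes in the last 3 collections of HL, with 12 false calls. JTK found 189 of 200 4-fold rhythms in HL and made 42 calls among 13292 unchanged genes in HH. Over genes, chi-square divided by its degrees of freedom was 1.27 to 2.11 between the 2 runs of a library and 3.05 to 129 between libraries of a group, so no library was counted as a repeat of another.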

Additional observations from a re-analysis of the deposited data

Results flagged for a closer look

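Of 210 groups of 4 to 10 libraries examined for the summed level and 9 members, 15 had a library far from the rest of its group by Dixon's gap over range at 95%, and chance gives about 1 in 20. No explanation was tested. By titles, the second HL collection had a library of 7187994 counts with a summed level of 887 CPM against 442 to 483 CPM in the other 3. It had 62.9 CPM of Smc2 against 16.5 to 22.5, 107 CPM of Top2a against 30.8 to 39.2 and 14.3 CPM of Cdca3 against 3.68 to 5.02. By number this library is in the first LH collection, and the other 3 of its group by titles are not listed. By library numbers HL had, in the last 3 collections, a library of 4634339 counts with a summed level of 1160 CPM against 548 to 815 in the other libraries, with 3.88 CPM of Kif2c against 0.182 to 1.94 and 23.95 CPM of Nusap1 against 4.21 to 14.1.

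Other values far from their group were high for Nusap1 in the first 3 HL collections by titles (29.02 CPM, others 6.06 to 18.1) and for Pttg1 in the first 3 LH collections by titles (123 CPM in a library of 2136819 counts, others 55.4 to 87.8). Kif2c had 19.1 CPM in the library of 104912 counts, 2 counts at that depth, against 0 to 7.90 CPM in the other first 3 LH collections by titles. In HH, Kif2c reached 8.82 CPM in the first 3 collections (others 1.499 to 4.86), Ncapd2 49.3 CPM in the last 3 (others 27.9 to 37.2) and Nusap1 9.88 CPM in the sixth (others 5.98 to 6.56). The lowest values were 16.03 CPM of Smc2 in the last 3 HH collections (others 30.2 to 43.0) and 2.14 CPM of Cdca3 in the sixth (others 5.29 to 5.80).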

How the results depend on the processing

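Counts of called members depended on the assignment of libraries and on single replicates. Depth limited the lowest members: 1 count in the shallowest library equals 9.53 CPM. The cause of no change listed here was tested. Percentages are shares of all genes called in the same fit. Levels (LH against HL and LH against HH, 1 member each by titles) gave 2 each with DESeq2 (1.26% and 0.873%) or no filter (1.87% and 1.62%), 3 each with the second run alone (0.913% and 0.898%), and 0 with the first run alone, Benjamini-Hochberg adjustment or library numbers, also with DESeq2, library totals or the block. Leaving out libraries under 1000000 counts removed no library by library numbers, so that alternative repeats the same fit there.

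Changes over collections (HL 0, LH 9 and HH 6 by titles) became 11, 18 and 22 without a filter (3.08%, 6.05% and 2.4%), and HH 3 with the first run alone (0.198%). By library numbers HL had 7 (0.394%) and LH 5 (1.05%). With numbers and DESeq2 HL and HH had 17 each (0.955% and 2.26%), and with numbers and library totals HL had 6 (0.303%). For the last 3 collections (0, 0 and 8 by titles), HH had 16 without a filter (0.28%). By library numbers HL had 13 (0.28%) and LH 11 (0.705%). Numbers with DESeq2 gave 18, 16 and 14 (0.465%, 1.28% and 0.46%), and numbers with library totals gave 12 in HL (0.295%) and 22 in LH (3%). For a rhythm difference of LH and HH (0), DESeq2 gave 1 (0.0392%) and no filter 5 (0.376%).

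JTK counts (0, 4 and 10 by titles) were 7 in LH with reference ties kept (1.53%), 19 and 21 in LH and HH at P under 0.05 (3.83% and 4.71%), 0 and 2 with an amplitude above 10 CPM (0.331% and 0.587%), 19 in LH by cosinor (3.27%), 2 and 6 with the first run alone (0.79% and 1.05%), 0 in LH with the second run alone (0.883%), and 0 in both after adjustment (0% and 0.00752%). By library numbers HL had 9 (1.03%) and LH 17 (1.31%). With reference ties these were 17 and 20 (1.82% and 2.14%). At P under 0.05 the 3 treatments had 18, 26 and 21 (4.3%, 4.47% and 4.74%), by cosinor 24, 19 and 24 (1.76%, 2.97% and 3.77%), with the amplitude limit 1, 2 and 2 (0.364%, 0.477% and 0.591%), and after adjustment 0 (0.0227%, 0% and 0.00758%). The median r of the members was 0.480 for residuals by library numbers and 0.547 for residuals by titles. With group means kept it was 0.724. Both motifs occurred in 43.2% of member promoters within 50 bases of the start (1.28% of all promoters), against 70.5% in the whole window (10.7%).

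Leaving out each replicate by either assignment gave 0 to 6 members in level for LH against HL and for LH against HH, 0 to 2 for HH against HL, 0 to 13, 1 to 12 and 0 to 12 over collections in HL, LH and HH, 0 to 16, 0 to 13 and 0 to 11 lower in the last 3 collections, 0 to 8, 0 to 10 and 0 to 11 by JTK, and 0 to 1 for the rhythm of LH and HH. Shares of all genes are not given for these ranges, so a move of the members cannot be told from one of the whole fit. The other results left the same call. After Benjamini-Hochberg adjustment 0 members differed in rhythm for HL against LH or HH under every alternative run. Unadjusted counts were 10 and 19 by titles and 0 and 0 by numbers.

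The labels tie no replicate number to a shared culture or batch, and the main tests held no term for the number. Not every pair was above an r of 0.1, but this cannot decide the question, because libraries of a batch can also differ. Deviations of same-numbered libraries from their group means had a median r of 0.00 over 438 pairs by titles (0.00 for other pairs) and 0.16 over 365 pairs by numbers (-0.04 for other pairs), and 17 of 61 and 29 of 56 libraries were closest to one of their own number. With the replicate block by library numbers, level had 0 for LH against HL (1.91%) and HH (2.34%), collections 15 in HL (0.977%) and 12 in HH (2.14%), and the last 3 collections 20 in HL (0.674%) and 16 in LH (1.58%). Without the block, these counts over collections and for the last 3 collections were lower, as given above, and so were the shares of all genes. By titles the block changed no count by over 1.5 times. By library numbers, same-numbered libraries were by the median more alike than other pairs, and by titles they were not. Whether the numbers mark a shared culture or batch was not tested, so the main counts by library numbers hold for libraries taken as unpaired.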

Other observations

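Of the other mitosis genes, 4 differed in level by titles at the unadjusted thresholds for LH against HL (Cep55, Fbxo5, Foxm1 and Psrc1), out of 95 tested (4.21%, against 1.16% of all genes), and by library numbers 1 did (1.05%, against 1.34%; Lin54). None of the 50 S phase genes or the 23 tested brakes and G1 genes did in either assignment. At an unadjusted edgeR p under 0.05 for LH against HL, 15 of the 50 S phase genes differed by titles (5.69% of all genes; their median log2 fold change was -0.24) and 3 by library numbers (7.63%). In HH, JTK at an exact P under 0.01 passed 5 of 95 other mitosis genes (5.26%; Arhgap11a, Kif18b, Ncaph2, Stag2 and Wee1), 4 of 50 S phase genes (8%; Fen1, Gins4, Lig1 and Rfc2) and 1 of 23 brakes and G1 genes (4.35%; the CDK inhibitor Cdkn1a), against 1.22% of all genes. Across the 61 deeper libraries the median r with the members was 0.481 for the S phase genes, 0.424 for the other mitosis genes, 0.276 for the brakes and G1 genes and 0.485 for the fibroblast markers, the last a list that shares no gene with the cell cycle lists.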
